A study of Mus musculus with 25 samples.

Results

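Spin1 and H3K4me3 occupancy was examined at 10 genes that encode isoforms of glycolytic enzymes and creatine kinases. They were chosen by name, and their transcription start sites (TSSs) were taken from RefSeq on GRCm38 (mm10). Of 21000 protein-coding genes with a curated RefSeq transcript, 6 were taken as muscle isoforms (Eno3, Pgam2, Pfkm, Fbp2, Ckm and Ckmt2) and 4 as other isoforms (Eno2, Pgam1, Pfkl and Ckb), by the tissue in which each enzyme is known to be abundant. The cells were primary myoblasts, cultured muscle precursors that preplating had enriched from limb muscle of mice at an age of 10 days. The labels give the strain as C57BL/6 and the study's methods as C57BL/6 N. They were grown to about 70% confluency, and no deletion of Spin1 or treatment is recorded for them. Spin1 chromatin was precipitated with the custom antibody SPIN1-5867, and H3K4me3, the histone mark that Spin1 reads, with an antibody that the labels call anti-H3K4me. The study's methods name that antibody as one against H3K4me3. Each antibody gave 1 library, so no spread between cultures could be estimated, and every difference below is a description without a test. The lists give no read numbers, so the sequencing depth is unknown, and a missing peak means that no enrichment was called at this depth. A peak in a culture may come from a part of the cells, which peak lists cannot show.

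Glycolysis splits glucose into pyruvate, and several of its steps are run by families of isoenzymes, each with its own gene. Enolase, phosphoglycerate mutase and creatine kinase are classical examples of an isoform switch, in which the form found in muscle precursors gives way to a muscle form as fibres mature. Creatine kinases move phosphate between ATP and creatine and buffer the energy supply of contracting muscle. H3K4me3 marks promoters of genes that are active or poised, and broad H3K4me3 domains are often found at strongly transcribed genes and at genes that set a cell's identity.

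Of the 10 genes, 7 had a Spin1 peak within 1 kb of a TSS, here called the promoter, and 8 had an H3K4me3 peak there. Among protein-coding genes, 56.7% had Spin1 (95% Wilson confidence interval 56.0 to 57.4, counting error only) and 68.0% had H3K4me3 (67.4 to 68.6). The other isoforms carried both peaks at 4 of 4 promoters. The muscle isoforms carried both at 3 of 6, namely at Eno3, Pgam2 and Pfkm. With the 50% of Spin1 peaks that score highest, Spin1 remained at 2 of 4 other isoforms (Pgam1 and Pfkl) and at 2 of 6 muscle isoforms (Eno3 and Pfkm). With these peaks, 42.9% of protein-coding genes had Spin1 at the promoter. Ckm had H3K4me3 without Spin1, a state of 11.3% of protein-coding genes. Fbp2 and Ckmt2 had neither peak, as did 32.0% of protein-coding genes. Spin1 was called at 7 of the 8 promoters with H3K4me3 and at neither of the promoters without it. Over protein-coding genes the pattern was similar. Of 14281 with H3K4me3 at the promoter, 11903 also had Spin1, and of 11911 with Spin1, 11903 also had H3K4me3. Each of the 8 Spin1 peaks at promoters of the 10 genes, of which Pfkm had 2, lay with 100% of its length inside the H3K4me3 peak. The share of Spin1 promoter peaks of all genes that lie so was not computed. Over protein-coding genes, H3K4me3 promoter peaks were the wider, with a median of 3250 bp against 2295 bp for Spin1.

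**Figure D1:**
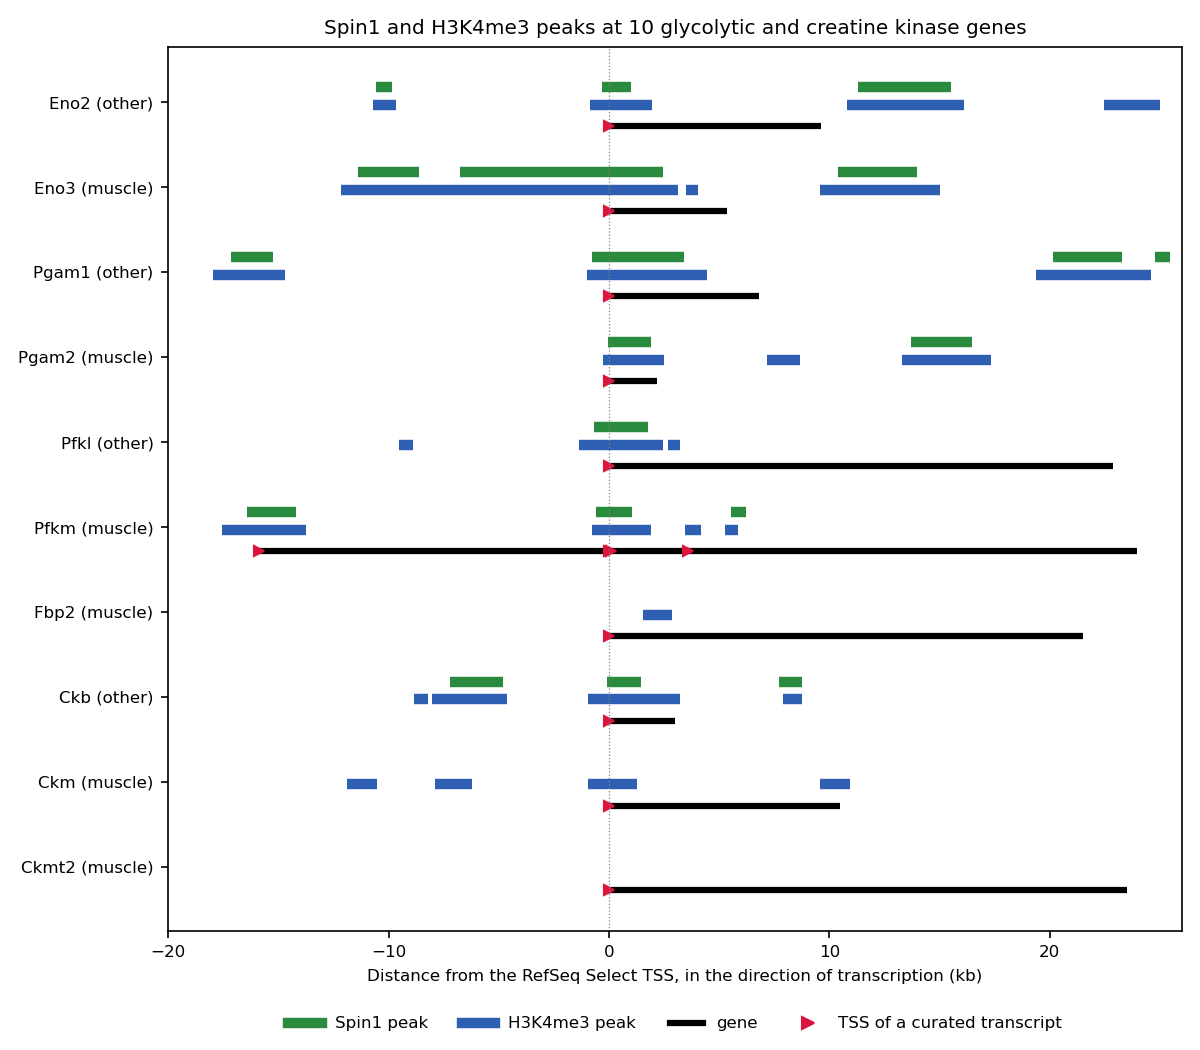
Spin1 peaks (green) and H3K4me3 peaks (blue) around the 10 genes (black lines), over 20 kb before and 26 kb after the RefSeq Select TSS, with red arrowheads at the TSSs of curated transcripts. At TSSs, Spin1 is seen at 7 genes, Ckm has H3K4me3 alone, and no peak of either kind lies at the TSS of Fbp2 or Ckmt2. The broadest peaks of both kinds are at Eno3.

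The following sequences show the 250 bases upstream of the TSS at 7 of these genes, from the RefSeq assembly GRCm38, 5′ to 3′ on the strand of the gene, with CpG dinucleotides in capitals. Pgam1 and Pgam2 are shown because both carried Spin1 although their CpG counts differ most.
Pgam1, chr19:41911621-41911870, plus strand, 22 CpG: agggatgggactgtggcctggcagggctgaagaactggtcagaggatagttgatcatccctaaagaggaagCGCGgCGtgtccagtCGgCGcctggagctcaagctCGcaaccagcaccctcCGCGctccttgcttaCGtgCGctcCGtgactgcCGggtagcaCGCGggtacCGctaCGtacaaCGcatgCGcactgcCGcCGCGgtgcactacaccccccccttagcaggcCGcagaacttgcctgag
Pgam2, chr11:5803797-5804046, minus strand, 1 CpG: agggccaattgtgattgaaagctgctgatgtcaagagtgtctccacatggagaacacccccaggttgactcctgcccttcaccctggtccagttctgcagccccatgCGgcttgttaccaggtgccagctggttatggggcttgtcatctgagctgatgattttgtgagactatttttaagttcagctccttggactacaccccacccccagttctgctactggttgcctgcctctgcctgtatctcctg
Eno3 is shown as the gene with the broadest peaks.
Eno3, chr11:70656926-70657175, plus strand, 3 CpG: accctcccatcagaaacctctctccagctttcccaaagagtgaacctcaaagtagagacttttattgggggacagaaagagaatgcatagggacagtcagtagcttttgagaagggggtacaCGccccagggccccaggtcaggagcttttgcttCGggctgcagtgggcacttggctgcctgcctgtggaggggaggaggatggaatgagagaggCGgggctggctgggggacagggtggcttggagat
Ckb and Ckm are shown as the pair that differed in Spin1.
Ckb, chr12:111672339-111672588, minus strand, 16 CpG: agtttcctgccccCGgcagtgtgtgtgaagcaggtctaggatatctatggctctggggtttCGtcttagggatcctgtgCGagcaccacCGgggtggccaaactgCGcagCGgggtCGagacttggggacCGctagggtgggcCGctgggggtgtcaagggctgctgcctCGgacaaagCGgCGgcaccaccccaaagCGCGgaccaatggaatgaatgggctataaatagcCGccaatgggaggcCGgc
Ckm, chr7:19410844-19411093, plus strand, 6 CpG: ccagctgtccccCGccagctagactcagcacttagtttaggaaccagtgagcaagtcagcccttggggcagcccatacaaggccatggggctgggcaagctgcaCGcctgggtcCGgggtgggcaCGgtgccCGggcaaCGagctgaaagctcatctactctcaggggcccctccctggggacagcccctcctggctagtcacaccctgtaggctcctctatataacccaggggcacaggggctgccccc
Fbp2 and Ckmt2 are shown as the promoters without a peak.
Fbp2, chr13:62858401-62858650, minus strand, 5 CpG: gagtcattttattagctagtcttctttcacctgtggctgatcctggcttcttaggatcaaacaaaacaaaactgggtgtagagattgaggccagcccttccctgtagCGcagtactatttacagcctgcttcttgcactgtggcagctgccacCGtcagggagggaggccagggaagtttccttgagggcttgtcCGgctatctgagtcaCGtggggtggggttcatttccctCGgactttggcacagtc
Ckmt2, chr13:91876886-91877135, minus strand, 2 CpG: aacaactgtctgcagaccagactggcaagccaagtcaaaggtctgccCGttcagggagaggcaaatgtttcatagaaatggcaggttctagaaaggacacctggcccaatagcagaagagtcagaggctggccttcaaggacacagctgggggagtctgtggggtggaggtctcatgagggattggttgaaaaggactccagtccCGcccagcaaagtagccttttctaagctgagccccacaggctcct

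Enolases convert phosphoglycerate to phosphoenolpyruvate. Eno3 encodes beta enolase, the muscle form, and Eno2 encodes gamma enolase, the form of neurons. Both promoters were occupied, but the peaks were very unequal. At Eno3 (chr11:70657176-70662513, plus strand), the Spin1 peak spanned 9189 bp at chr11:70650435-70659623, a width percentile of 99.9 among the 11911 protein-coding genes with Spin1 at the promoter. The H3K4me3 peak spanned 15319 bp at chr11:70645004-70660322, a percentile of 99.8 among 14281 genes. In all percentiles and medians of promoter peaks, each gene enters with its widest peak, or for scores with its highest. The peaks at Eno3 are not those of this gene alone. The Spin1 peak reached 6741 bp upstream of the TSS of Eno3, and 73.4% of it lay upstream. It also held the TSS of Pfn1, the gene of the actin-binding protein profilin, which lies 2526 bp from that of Eno3. The H3K4me3 peak held in addition the TSSs of Rnf167, a ubiquitin ligase gene, and Slc25a11, a gene of a mitochondrial carrier. Shares of the peak belonging to Eno3 and to its neighbours cannot be told apart. Downstream of the TSS, the Spin1 peak reached 2447 bp and the H3K4me3 peak 3146 bp. Spin1 covered 45.9% of the Eno3 gene, and H3K4me3 covered 69.2%, to which a separate H3K4me3 peak of 547 bp with a score of 50.61 in intron 7 contributed. When the centre of a peak had to lie within 1 kb of the TSS, neither mark was counted at Eno3.

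At Eno2 (chr6:124760053-124769673, minus strand), the Spin1 peak spanned 1293 bp at chr6:124768682-124769974, a width percentile of 11.8. Its MACS score, which is the negative log10 of its p-value over input DNA times 10, was 401.01, against 3100 at Eno3. With the highest-scoring promoter peak of each gene, the median Spin1 score was 2992. Of these peaks, 48.9% were at 3100 or above, where scores pile up and have no reliable order. The H3K4me3 peak of Eno2 spanned 2819 bp at a score of 3100 and a width percentile of 37.3, with a median width of 3250 bp over protein-coding genes. Spin1 at this gene was thus narrow and low in score and lay over 45.9% of the H3K4me3 peak. Of the other enolase genes, Eno1, the ubiquitous form, had a Spin1 peak of 5014 bp and an H3K4me3 peak of 11840 bp. Eno4, which encodes an enolase of sperm, had both, with a Spin1 peak of 1447 bp and a score of 1118.62. Eno1b, a close copy of Eno1, had neither. Reads were mapped with default settings and intensity profiles drawn from uniquely mapped reads, but whether peak calling was limited to these is not stated, so that values at near-identical copies are uncertain.

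Phosphoglycerate mutases move the phosphate group of phosphoglycerate ahead of the enolase step. Pgam1 encodes the broadly expressed form and Pgam2 the muscle form. At Pgam1 (chr19:41911871-41918665, plus strand), Spin1 spanned 4173 bp at chr19:41911093-41915265 with a score of 3100 and H3K4me3 spanned 5415 bp, width percentiles of 93.1 and 87.5. At Pgam2 (chr11:5801637-5803796, minus strand), Spin1 spanned 1943 bp at chr11:5801896-5803838 with a score of 645.76 and H3K4me3 spanned 2790 bp, percentiles of 35.0 and 36.4. The Spin1 peak of the muscle gene began 42 bp upstream of the TSS and ran 1900 bp downstream, so that 2.16% of it lay upstream, against 18.6% at Pgam1. Pgam2 is a short gene of 2160 bp with 3 exons, and Spin1 covered 88.0% and H3K4me3 100% of it. Bpgm, which makes the bisphosphoglycerate of red cells, had both peaks, with a Spin1 peak of 1692 bp and a score of 1026.8.

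Phosphofructokinase runs the committed step of glycolysis. Pfkl encodes its liver form and Pfkm its muscle form. Pfkl (chr10:77986947-78009807, minus strand) had a Spin1 peak of 2472 bp at chr10:78008014-78010485 with a score of 2378.78 and an H3K4me3 peak of 3845 bp. These widths lay near the middle of promoter peaks, at percentiles of 57.6 and 65.0. Pfkm (chr15:98092589-98132447, plus strand) has 4 TSSs, and its occupancy differed among them. At the first, at 98092589, Spin1 spanned 2226 bp with a score of 3100 and H3K4me3 spanned 3789 bp. Both of these peaks also held the TSS of Senp1, a SUMO protease gene, at a distance of 786 bp, and shares of the genes cannot be told apart there. The TSS of the RefSeq Select transcript, at 98108471, and the TSS at 98108556 shared a Spin1 peak of 1606 bp with a score of 1192.41 and an H3K4me3 peak of 2652 bp, which held the TSS of no other gene. At the last TSS, at 98112060, no Spin1 peak was called, and the H3K4me3 peak was narrow, 717 bp wide with a score of 90.61. Pfkm thus had Spin1 at 3 of 4 TSSs and H3K4me3 at 4 of 4. Pfkp, the platelet form, had a Spin1 peak of 2519 bp with a score of 2387.49 and an H3K4me3 peak of 3247 bp. The Spin1 values of Pfkp were close to those of Pfkl.

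**Figure D2:**
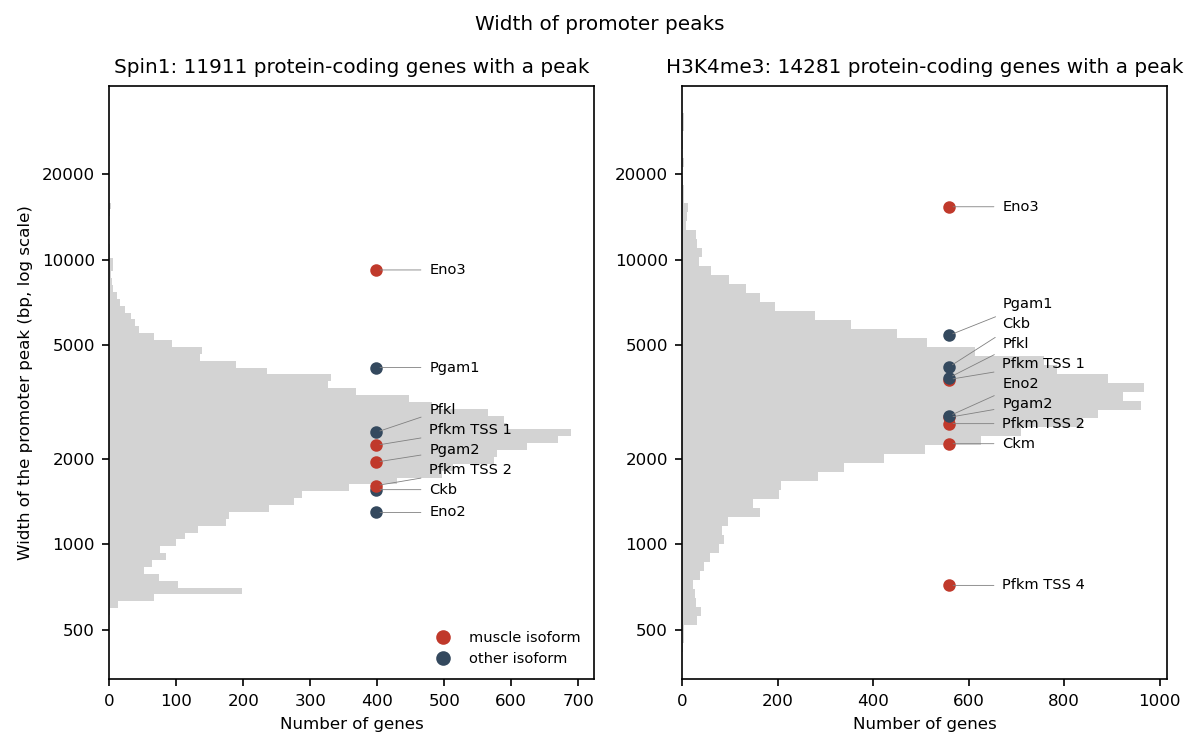
Widths of promoter peaks in bp on a log scale for protein-coding genes (grey histograms, widest peak of each gene, number of genes on the horizontal axis) and for the 10 genes where a peak was called (points, red for muscle and dark for other isoforms). For Pfkm the TSS is given, and TSS 2 shares its peaks with TSS 3. The horizontal place of the points has no meaning. Eno3 lies at the upper end for both marks, and Eno2 has the narrowest of the 8 Spin1 peaks.

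Fructose bisphosphatase opposes phosphofructokinase. Fbp2 (chr13:62836884-62858400, minus strand), its muscle form, had no Spin1 peak in the gene or within 50 kb on either side, which was so for 23.4% of protein-coding genes and for 1 of the 10 genes described here. The nearest Spin1 peak lay 72117 bp from its TSS. An H3K4me3 peak of 1310 bp with a score of 1547.47 lay inside intron 1, at chr13:62855547-62856856, from 1544 to 2853 bp downstream of the TSS. Fbp2 therefore lacked H3K4me3 at the promoter as defined here but counted as marked when the promoter was widened to 2 kb on each side of the TSS. Fbp1, the liver form and the nearest neighbour at 29882 bp, had H3K4me3 without Spin1, in a peak of 675 bp with a score of 125.44.

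Among the creatine kinases, Ckb encodes the brain form, which is also known from muscle precursors, Ckm the cytosolic muscle form and Ckmt2 the mitochondrial form of sarcomeric muscle. They fell into 3 states. Ckb (chr12:111669355-111672338, minus strand) had a Spin1 peak of 1555 bp at chr12:111670871-111672425 with a score of 634.83, a width percentile of 19.3, inside an H3K4me3 peak of 4193 bp. Spin1 covered 37.1% of that H3K4me3 peak and 49.2% of the gene, and H3K4me3 covered 100% of the gene. Ckm (chr7:19411094-19421583, plus strand) had an H3K4me3 peak of 2255 bp at chr7:19410135-19412389 with a score of 967.66 and no Spin1 peak. The score lay at a percentile of 5.76 among H3K4me3 promoter peaks, taking the highest-scoring peak of each gene. Of these peaks, 89.7% were at 3100 or above. The nearest Spin1 peak lay 27204 bp from the TSS of Ckm, and its nearest neighbour Klc3, a kinesin light chain gene, also had H3K4me3 without Spin1. Ckmt2 (chr13:91853387-91876885, minus strand) had no peak of either kind in the gene. The nearest Spin1 peak lay 68130 bp and the nearest H3K4me3 peak 67620 bp from its TSS, both at the promoter of its neighbour Zcchc9, a zinc finger gene, whose TSS is 69189 bp away. Ckmt1, the ubiquitous mitochondrial form, had H3K4me3 without Spin1, in a peak of 1284 bp with a score of 316.01.

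Spin1 peak widths were set side by side within each family that has a muscle form and another form in this list. Enolase had the broader Spin1 peak over the TSS of the muscle form. Mutase, phosphofructokinase and creatine kinase had it at the other form, or there alone. The Eno3 peak of 9189 bp also held the TSS of Pfn1, and 73.4% of it lay upstream of the Eno3 TSS. The part of this width that belongs to Eno3 cannot be told, so the enolase forms cannot be ranked by it. Eno2 was the only other enolase in this list, and the ubiquitous Eno1, outside it, had a Spin1 peak of 5014 bp. For phosphofructokinase the widths were 2472 bp at Pfkl and 2226 bp at the first TSS of Pfkm, a small gap. That Pfkm peak also held the TSS of Senp1. At the RefSeq Select TSS of Pfkm the peak was 1606 bp wide. This order rests on 1 list.

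Peaks away from promoters were then counted, in the gene body or within 50 kb of the gene and outside TSS±1 kb of every curated transcript. Assignment to a gene was by distance alone. Such a Spin1 peak was found for 5 of 10 genes (Eno2, Eno3, Pgam1, Pfkm and Ckb), against 31.0% of protein-coding genes, and an H3K4me3 peak for 8 of 10, against 60.3%. Pgam1 and Ckmt2 were the genes without H3K4me3 of this kind. The 5 genes with such Spin1 peaks had 9 of them, with scores between 74.55 and 818.68, and 7 of the 9 overlapped an H3K4me3 peak. The share of all Spin1 peaks at no promoter that overlap H3K4me3 was not computed, so this overlap cannot be called particular to these genes. A Spin1 peak of 1041 bp lay 7716 to 8756 bp downstream of the TSS of Ckb with a score of 305.43, and Ckb was the gene with the nearest TSS. Inside Pfkm, a Spin1 peak of 654 bp with a score of 74.55 lay in intron 2 of the RefSeq Select transcript. The other 7 lay nearer to the TSSs of other genes, namely Atn1 and Spsb2 around Eno2, 4930544D05Rik upstream of Eno3, Zdhhc16 downstream of Pgam1, Asb8 and Ccdc184 downstream of Pfkm and Bag5 upstream of Ckb. Of the 9 Spin1 peaks, 2 thus had a gene of the list as the nearest by TSS.

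**Figure D3:**
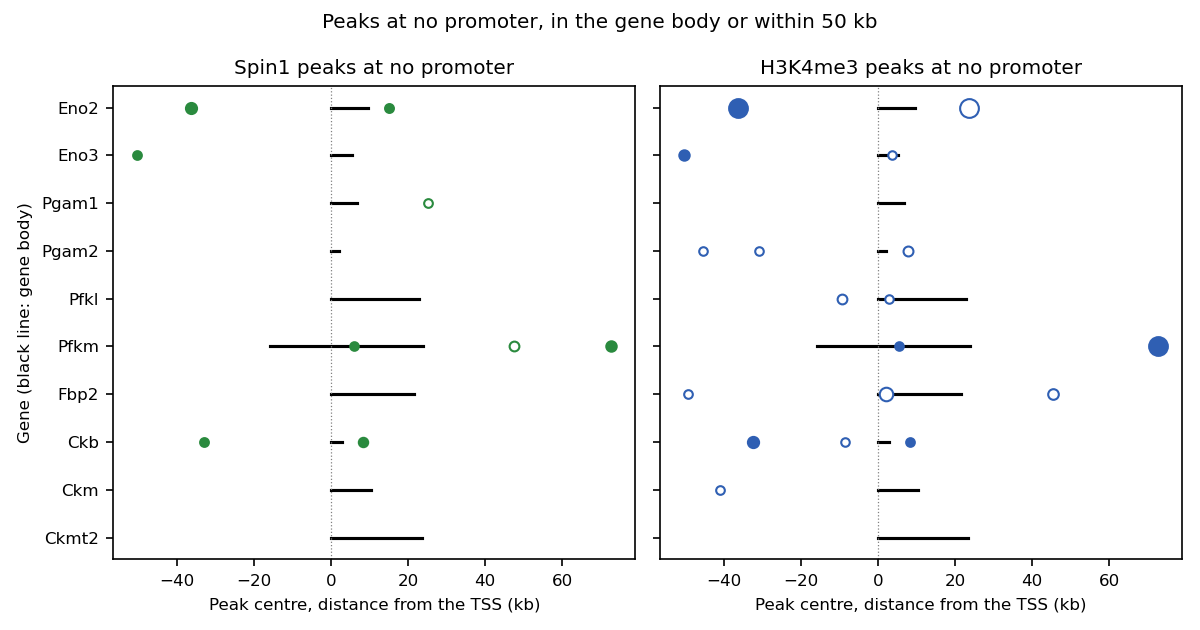
Spin1 peaks (left) and H3K4me3 peaks (right) at no promoter, by the distance of the peak centre from the RefSeq Select TSS in kb, in the direction of transcription. Point size grows with the score, filled points overlap a peak of the other mark, and black lines are gene bodies. Eno2, Pfkm and Ckb have more than 1 Spin1 peak of this kind, and Ckmt2 has none of either mark.

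The sequence around the TSS differed between the isoform classes. CpG content was measured as the observed over the expected number of CpG dinucleotides in TSS±0.5 kb at the RefSeq Select TSS, a ratio that is high in CpG islands. The other isoforms had ratios of 0.98 (Pgam1), 0.71 (Pfkl), 0.68 (Ckb) and 0.64 (Eno2). The muscle isoforms had 0.49 (Pfkm), 0.34 (Pgam2 and Fbp2), 0.20 (Ckmt2), 0.17 (Eno3) and 0.15 (Ckm). The classes did not overlap in this ratio. Among all protein-coding genes, the other isoforms lay at percentiles of 54.5 to 97.2 and the muscle isoforms at 13.5 to 41.0. Of 21000 protein-coding genes, 10526 had a ratio of 0.6 or above, as the 4 other isoforms did. Protein-coding genes with both marks had a median of 0.76, those with H3K4me3 alone 0.53 and those with neither 0.18.

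Occupancy over all genes followed CpG content. With class limits of 0.3 and 0.6, chosen after the values were seen, Spin1 lay at 90.7% and H3K4me3 at 99.1% of the 10526 promoters at 0.6 or above, which include the 4 other isoforms. Of the 4312 promoters from 0.3 to below 0.6, which include Pgam2, Pfkm and Fbp2, 46.0% had Spin1 and 71.8% had H3K4me3. Of the 6162 promoters below 0.3, 6.22% had Spin1 and 12.2% had H3K4me3. Eno3, Ckm and Ckmt2 were in this lowest class, with both marks, H3K4me3 alone and neither, respectively. Spin1 at 4 of 4 other isoforms thus stands beside 90.7% of promoters of like CpG content. Spin1 at Eno3, in a peak that also held the TSS of Pfn1, stands beside 6.22%. The part of CpG content in the difference between the isoform classes was not tested.

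**Figure D4:**
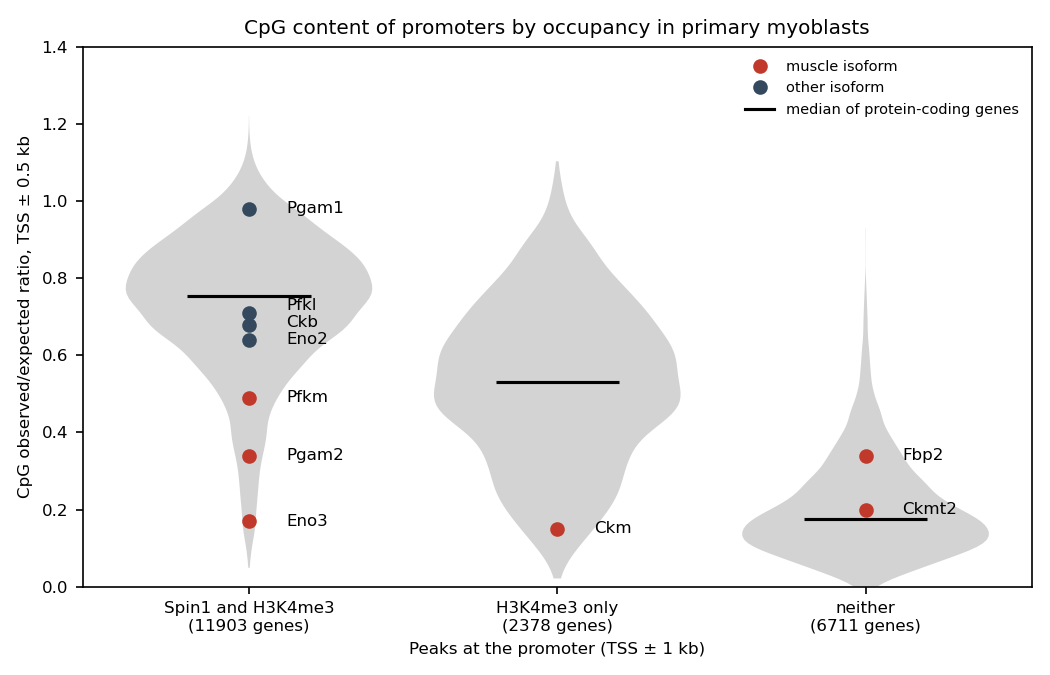
CpG observed/expected ratio in TSS±0.5 kb for protein-coding genes, by the peaks at the promoter (grey shapes, with black lines at the medians of 0.76, 0.53 and 0.18), and for the 10 genes (red for muscle, dark for other isoforms). The 4 other isoforms lie above the muscle isoforms, and Eno3 lies at the lower end of the genes with both marks.

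Motifs were searched on both strands from 250 bases upstream to 50 bases downstream of the TSS, and a match is a description, not a bound site. CANNTG, the E-box read by bHLH factors, lay in 68.7% of 20488 protein-coding promoters, and 1.49% had 5 or more matches. Pgam2 and Fbp2 each had 5, Ckmt2 had 4, Pfkl had 3, Eno3 had 2, Eno2 and Ckm had 1, and Pgam1, Ckb and the RefSeq Select TSS of Pfkm had 0. Pgam2, with Spin1, and Fbp2, without it, thus had the same number. CAGCTG, a form of the E-box that is included in these counts, lay in 15.8% of promoters and in 5 of the 6 muscle isoforms, with none in the 4 other isoforms or at the 4 TSSs of Pfkm. Counted from the TSS, it began at -125 in Pgam2, -107 in Fbp2 and Ckmt2, -249 in Ckm and 39 in Eno3. In the sequences shown above it stands in lower case, except that of Eno3, which is downstream of the stretch printed.

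The consensus of MEF2, a factor family of muscle and neurons, lay in 2.60% of promoters. It was found in Pgam2 at -80, as CTATTTTTAA, and in Ckb at -29, as CTATAAATAG. The match in Ckb overlaps the TATA box TATAAA at -28, so these letters count for both motifs. TATAAA lay in 12.4% of promoters and, among the 10 genes, also in Eno2 at -201 on the reverse strand.

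Of 36 further genes of glycolysis and of creatine synthesis and transport, 25 had both marks at the promoter, 2 had H3K4me3 alone and 9 had neither. Over 21000 protein-coding genes, 11903 had both, 11.3% had H3K4me3 alone and 32.0% had neither. In the list of 36, the 2 with H3K4me3 alone were Fbp1 and Ckmt1, both described above. Those with neither included Hk3, a hexokinase of white blood cells, Pklr, the pyruvate kinase of liver and red cells, Aldoc, the brain aldolase, Gapdhs, Pgk2 and Ldhc, isoforms of the testis, and Eno1b. Genes with both included Aldoa, Gapdh, Pkm and Ldha, the forms of these enzymes that muscle uses. Their Spin1 peaks were 4209, 4993, 7341 and 3789 bp wide, against a median of 2295 bp over protein-coding genes with Spin1. Other genes of the list with both marks had narrower Spin1 peaks, such as Gpi1 with 1620 bp and Ldhb with 1276 bp. Whether TSSs of other genes lie in these peaks was not examined. The muscle glucose transporter gene Slc2a4 had a Spin1 peak of 963 bp with a score of 156.27 inside an H3K4me3 peak of 2710 bp.

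The cell type label was checked against marker lists. Both marks lay at 9 of 9 myoblast marker promoters, among them Myod1, Myf5 and Pax7, at 3 of 7 mature fibre markers (Acta1, Mylpf and Casq1) and at 3 of 5 fibroblast markers (Pdgfra, Col1a1 and Col3a1). Myh1 and Pvalb of the fibre list had H3K4me3 alone, and Myh2 and Myh4 had neither. The part of other cells in the culture in these marks was not tested. Spin1 lay at 0 of 4 markers each of endothelium, leukocytes, neurons and hepatocytes, while H3K4me3 lay at 2, 1, 4 and 0 of them. Over all protein-coding genes, 56.7% had Spin1, 68.0% had H3K4me3 and 11903 of 21000 had both.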

How the data were processed

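Of 25 samples, the Spin1 and H3K4me3 ChIP-seq samples of primary myoblasts were used, with 1 library each. The authors mapped reads to mm10 with Bowtie2 and called peaks against input with MACS 1.4.2. They deposited a position and a MACS score for each of 17106 Spin1 and 30763 H3K4me3 peaks, and 30.9% and 45.2% of the scores were at 3100 or above. Libraries were amplified with 12 PCR cycles. The score grows with depth, which is unknown, and the lists do not show peaks too weak to be called. Wilson intervals cover counting error only.

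Promoters were TSS±1 kb of the curated transcripts in RefSeq release 108.20200622, with an overlap of at least 1 bp, and coordinates count from 1. Upstream sequences were read from GRCm38, and promoters for motif counts from a RefSeq table of that build, which matched 10 of 10 genes. No conditions could be tested. Overlap calls were tested on simulated peaks. Members and lists were chosen with earlier results of these data known. Named were the 10 genes, their paralogs, list genes lacking a mark, genes with a TSS inside a promoter peak, the nearest genes of Spin1 peaks at no promoter, and markers going against the label. Some list genes lacking both marks are not reported here by name. The nearest neighbour of each gene, and Aldoa, Gapdh, Pkm, Ldha and Slc2a4, were added after their values were seen. Alternatives were other windows, 1 TSS per gene, score limits, centre assignment, other flanks and a 300 bp promoter for CpG. Not analysed here were the input and 22 RNA-seq samples. Python 3.11.15, NumPy 2.4.6, SciPy 1.17.1, pysam 0.24.0, samtools 1.23.1 and matplotlib 3.10.9 were used.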

Additional observations from a re-analysis of the deposited data

How the results depend on the processing

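Of 52 recomputed counts over the 10 genes, 45 stayed within 1.5 times the reported count. With the 50% of peaks of each list that score highest, Spin1 promoter counts fell to 4 of 10 genes (without Eno2, Pgam2 and Ckb) and to 2 of the 4 other isoforms, and genes with a peak at no promoter fell to 0 for Spin1, beside 3.06% of protein-coding genes, and to 3 for H3K4me3, beside 20.5%. When the peak centre had to lie inside the promoter, H3K4me3 counts fell to 4 of 10, 2 of 6 muscle and 2 of 4 other isoforms, losing Eno3, Pgam1, Pgam2 and Ckb, whose peaks extend far to 1 side, and Spin1 counts fell to 5 of 10, losing Eno3 and Pgam1. Among protein-coding genes, Spin1 lay at 55.8% with 1 kb upstream to 0.1 kb downstream, 55.8% with 1 TSS per gene, 42.9% with the top 50% of peaks, 52.7% by peak centre and 50.7% of all genes with a curated transcript. H3K4me3 lay at 68.7% with TSS±2 kb, 67.2% with 1 TSS per gene, 67.3% with scores of at least 100, 63.0% with the top 50%, 56.3% by peak centre and 61.9% of all genes. In the 300 bp promoter, the CpG ratio was 0.05 at Pgam2 and 0.23 at Ckm, against 0.34 and 0.15, and the isoform classes still did not overlap. The ratio in this window was computed for the 10 genes only, so no share over all protein-coding genes can be given for it. No paired analysis was possible because each antibody has 1 library. Depth is unknown, so absent peaks may be below detection.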

Other observations

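Some genes of the list with near-equal CpG ratios in TSS±0.5 kb differed in occupancy. These pairs were picked after the values were seen and carry no test. Pgam2 and Fbp2 had the same CpG ratio, 0.34, and the same number of CANNTG matches, 5, and each had a CAGCTG match, yet Pgam2 had both marks over its TSS and Fbp2 had no Spin1 peak within 50 kb. Eno3 and Ckm had ratios of 0.17 and 0.15 and a CAGCTG match each, and Eno3 lay in the broadest peaks of the list while Ckm had H3K4me3 alone. Neither pair was near-equal in the 300 bp promoter in which the motifs were counted, where the ratios were 0.05 at Pgam2 and 0.29 at Fbp2, and 0.13 at Eno3 and 0.23 at Ckm. Eno3 has the TSS of Pfn1 within 2526 bp, and Pfkm has that of Senp1 within 786 bp of its first TSS. The nearest other TSS is 6990 bp away at Ckm, 15313 bp at Pgam2, 29882 bp at Fbp2 and 69189 bp at Ckmt2. At the other isoforms, which all had both marks, it is 5767 bp away at Ckb, 10054 bp at Eno2, 15718 bp at Pgam1 and 31157 bp at Pfkl. The part of neighbour distance in occupancy was not tested.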
